A study of Drosophila melanogaster with 12 samples.

Results

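The JAK-STAT pathway carries a secreted signal from one cell to the genes of its neighbor. In Drosophila the Unpaired ligands (upd1, upd2 and upd3) bind the receptor Domeless (dome), which activates the Janus kinase Hopscotch (hop), and the kinase phosphorylates the transcription factor Stat92E, which then enters the nucleus. Among the genes that Stat92E turns on is Socs36E, whose product dampens the receptor and kinase, and the tyrosine phosphatase Ptp61F acts on the kinase and on Stat92E. In the ovary the pathway is known for its work in the somatic cells around the germline stem cells and in the polar cells and their neighbors in the follicle epithelium. These 8 genes were taken by name and kept whatever their values, though the list was chosen with earlier results of these data known. The count tables held 7 of the 8 among 17023 gene IDs, all 7 passed the filter on low counts, and Ptp61F was not analysed here.

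The genes were followed in polysome sequencing of fly ovaries, in which mRNA bound by several ribosomes is separated on a sucrose gradient and sequenced beside the input mRNA of the same lysate. The Nop60B RNAi ovaries carried a knockdown of Nop60B, the pseudouridine synthase of the H/ACA snRNP complex, in the germline, driven by UAS-Dcr2;nosGAL4. The cyst control was nosGAL4>bam RNAi;hs-bam, whose arrested germ cells were driven to form cysts by heat-shocking adult females several times. The germarial control was young UAS-Dcr2;nosGAL4 (YWT), and all 3 genotypes carried the nosGAL4 driver. By the study's methods the germarial control and Nop60B RNAi ovaries both came from freshly eclosed females. The heat-shocked females of the cyst control were older, so age differs in comparisons with that control. Each genotype gave 2 polysome and 2 input libraries, 12 in all, each from pooled ovaries. Since nosGAL4 acts in germ cells and the JAK-STAT genes work largely in somatic cells, and since whole ovaries were used, fewer cells of a type and less RNA per cell cannot be told apart in any value that follows.

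The libraries differed in marker levels of several cell types. Libraries held 2780781 to 21626125 counts, and the shallowest was cyst control polysomes replicate 1. Nop60B itself, which the germline driver does not target in the soma, measured 446 to 473 CPM (counts scaled to library size after TMM normalization) in the 4 Nop60B RNAi libraries, against 336 to 748 CPM in the cyst control and 1553 to 1906 CPM in the germarial control. Its log2 fold change was -1.94 on polysomes and -1.88 in input against the germarial control (edgeR quasi-likelihood test, adjusted p = 0.0155 and 0.0242), whereas -0.18 and -0.26 against the cyst control did not pass (adjusted p = 0.766 and 0.746). The 4 germline markers found in the tables (aub, osk, bam, zpg) summed to 31.9 to 65.7 CPM in Nop60B RNAi, against 272 to 1460 CPM in the cyst control and 1019 to 2255 CPM in the germarial control. All 4 were above 0 in every library. The 6 hemocyte markers summed to 1334 to 3040 CPM in Nop60B RNAi, against 303 to 839 CPM in the cyst control and 72.8 to 88.2 CPM in the germarial control, and 1 of the 6 was at 0 in cyst control polysomes replicate 1, while the defining gene Hml was above 0 in every library. The 5 muscle markers summed to 12061 to 16364 CPM in Nop60B RNAi and 2231 to 2796 CPM in the germarial control. Within the cyst control they summed to 11794 CPM in input and 16171 CPM in polysomes of replicate 1, against 2800 and 2661 CPM in replicate 2, so the replicates of that control stood apart. The 5 follicle cell markers summed to 832 to 1303 CPM in Nop60B RNAi, against 227 to 1537 CPM in the cyst control and 521 to 881 CPM in the germarial control, with none at 0. The 3 escort cell markers, of the somatic cells that wrap germline cysts, summed to 1528 to 1953 CPM in Nop60B RNAi, against 271 to 3209 CPM in the cyst control and 290.4 to 398 CPM in the germarial control. The 5 terminal filament and cap cell markers summed to 103 to 136 CPM in Nop60B RNAi, against 9.04 to 29.2 CPM in the cyst control and 21.4 to 31.1 CPM in the germarial control. Of these 5, 3 were at 0 in each library of cyst control replicate 1. In each Nop60B RNAi polysome library, germarial control polysomes replicate 1 and cyst control input replicate 2, 1 was at 0. The part of these cell types in the results below was not tested. The 7 heat shock genes summed to 14325 to 52506 CPM in the cyst control, against 386 to 852 CPM in all the other libraries.

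The ligand genes lie together on the X chromosome (dm6, Release 6). The gene upd2 occupies chrX:18240654-18243284 on the minus strand, upd3 chrX:18277233-18284596 on the plus strand, and upd1 chrX:18305354-18309291 on the minus strand, so that the 3 genes span 68638 bases. The receptor gene dome is at chrX:19676061-19683518 (minus strand), 169 bases from the related receptor gene et, and hop is at chrX:11360930-11368098 (minus strand). Stat92E is at chr3R:20535323-20552311 and Socs36E at chr2L:18138675-18152417, both on the minus strand. An annotated long non-coding RNA overlaps Socs36E on the other strand, and the strand setting of the counting is not given in the sources used here, so whether reads of these 2 genes were told apart is not known. A transposon-derived element lies within Stat92E on its own strand, outside the exons. No annotated gene overlaps upd1, upd2, upd3, dome or hop.

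Among the ligands, upd1 had no count on polysomes in Nop60B RNAi. upd1 is the ligand that polar cells of the follicle epithelium are known for. Its counts were 0 and 0 in Nop60B RNAi polysomes, against 127 and 51 in cyst control polysomes and 256 and 148 in germarial control polysomes. In normalized units the controls stood at 57.4 and 2.96 CPM (cyst) and 14.9 and 6.40 CPM (germarial), so both knockdown libraries lay below every control library. The share of all tested genes whose libraries separate in such a way was not computed. Separations of libraries, here and below, are therefore descriptions. A count of 0 in these libraries allows up to 3 counts, a mean of 0.184 CPM over the 2 libraries. Against that limit, upd1 was at least 164-fold lower in Nop60B RNAi than in cyst control polysomes and at least 57.7-fold lower than in germarial control polysomes (edgeR quasi-likelihood test, adjusted p = 0.0128 and 0.0223). The first call was lost when either Nop60B RNAi polysome library was left out (adjusted p = 0.0808 and 0.0730), and the second when any of the 4 polysome libraries compared was left out (adjusted p from 0.0941 to 0.123). From the lowest control library alone the bounds were 16.1-fold and 34.7-fold. upd1 passed the filter on low counts through the control libraries and would not have passed on the knockdown libraries alone, so nothing is read from its place in the tests. The cyst figure rested on replicate 1, whose 57.4 CPM came from the shallowest library. These bounds cover counting error only, because the reads carried no molecular identifiers.

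In input mRNA upd1 was counted in all 6 libraries, at a low level. It measured 0.607 and 1.86 CPM (8 and 26 counts) in Nop60B RNAi input, against 3.61 and 3.39 CPM in the cyst control and 6.98 and 8.49 CPM in the germarial control. The knockdown libraries were below all 4 control libraries here too, but the log2 fold changes of -1.50 ± 1.33 (SE) against the cyst control and -2.64 ± 1.38 against the germarial control did not pass the test (edgeR adjusted p = 0.578 and 0.326). Set against its own input, upd1 was at least 6.69-fold lower on Nop60B RNAi polysomes, and at least 3.29-fold lower from the lowest input library alone. Many mRNAs of that level shared this: of 1210 other genes with a mean of 0.617 to 2.47 CPM in Nop60B RNAi input, 46% had no count in both Nop60B RNAi polysome libraries. The same measure around upd1's own input level gave 1.44% of 1249 genes in the cyst control and 0% of 1225 genes in the germarial control, where upd1 input was higher. Nop60B RNAi polysome libraries detected 8525 to 8542 genes, against 10422 to 10997 in its input libraries.

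The coding sequence of upd1 was examined for runs of CAG codons, which encode glutamine, because CAG repeats are a sequence feature that the study examined in polysome-bound mRNA. The longest annotated coding sequence of upd1 has 29 CAG codons among 413 (7.02%, against a median of 3.04% over 13934 coding genes). Its longest in-frame run holds 5 CAG codons (codons 346 to 350), at chrX:18306274-18306312, and 4.04% of coding genes have a run at least that long. The run is shown in capitals with its flanking codons, 5′ to 3′ on the coding strand, from the Release 6 RefSeq genome:
upd1: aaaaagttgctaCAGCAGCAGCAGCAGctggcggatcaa
The other ligand genes have no run above 2 CAG codons, a length that 44.9% of coding genes reach. This is a description of letters in a sequence, and it was not tested against the counts.

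upd2, a ligand known in the fly for signaling from the fat body, had its highest values in Nop60B RNAi, at very low counts. Nop60B RNAi polysomes held 5.38 and 2.14 CPM (87 and 35 counts), against 0 and 0 CPM in cyst control polysomes and 0 and 0.821 CPM in germarial control polysomes. Nop60B RNAi input held 0.304 and 2.29 CPM, against 0 and 0.121 CPM in the cyst control and 0.249 and 0.269 CPM in the germarial control. The knockdown libraries were above every control library within each fraction, yet the 2 knockdown input libraries held 4 and 32 counts. On polysomes upd2 was at least 4.91-fold higher in Nop60B RNAi than in the cyst control, and at least 2.79-fold higher from the lowest knockdown library alone, a difference that did not pass after adjustment (edgeR adjusted p = 0.130). upd2 passed the filter on low counts only through the Nop60B RNAi libraries, so nothing is read from its place in the tests. The 4 fat body markers summed to 36.1 and 4.40 CPM on Nop60B RNAi polysomes, against 1.36 and 3.08 CPM in the cyst control and 0.116 and 1.60 CPM in the germarial control, with 2 of the 4 at 0 in both knockdown libraries, and their part in the upd2 values was not tested. Against the germarial control the log2 fold change was 3.15 ± 2.22 (SE, adjusted p = 0.379).

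upd3, the ligand known in flies for its induction by wounding and infection, passed the test in no comparison. Its polysome levels were 1.24 and 2.99 CPM in Nop60B RNAi, against 0.452 and 1.22 CPM in the cyst control and 7.38 and 2.55 CPM in the germarial control. Its input levels were 0.987 and 0.358 CPM in Nop60B RNAi, against 5.98 and 1.45 CPM in the cyst control and 2.12 and 3.50 CPM in the germarial control. In input both knockdown libraries lay below all 4 controls, whereas on polysomes they overlapped the germarial control, and adjusted p in the 4 comparisons of Nop60B RNAi ran from 0.388 to 0.615. Across the 12 libraries, log2(CPM + 1) of upd1 correlated with that of upd2 at r = -0.66 and with that of upd3 at r = 0.10. These are descriptions over libraries that share genotype and depth. Nothing is read from either value, because upd1 passed the filter on low counts only through the control libraries. upd2 passed it only through the Nop60B RNAi libraries.

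**Figure D1:**
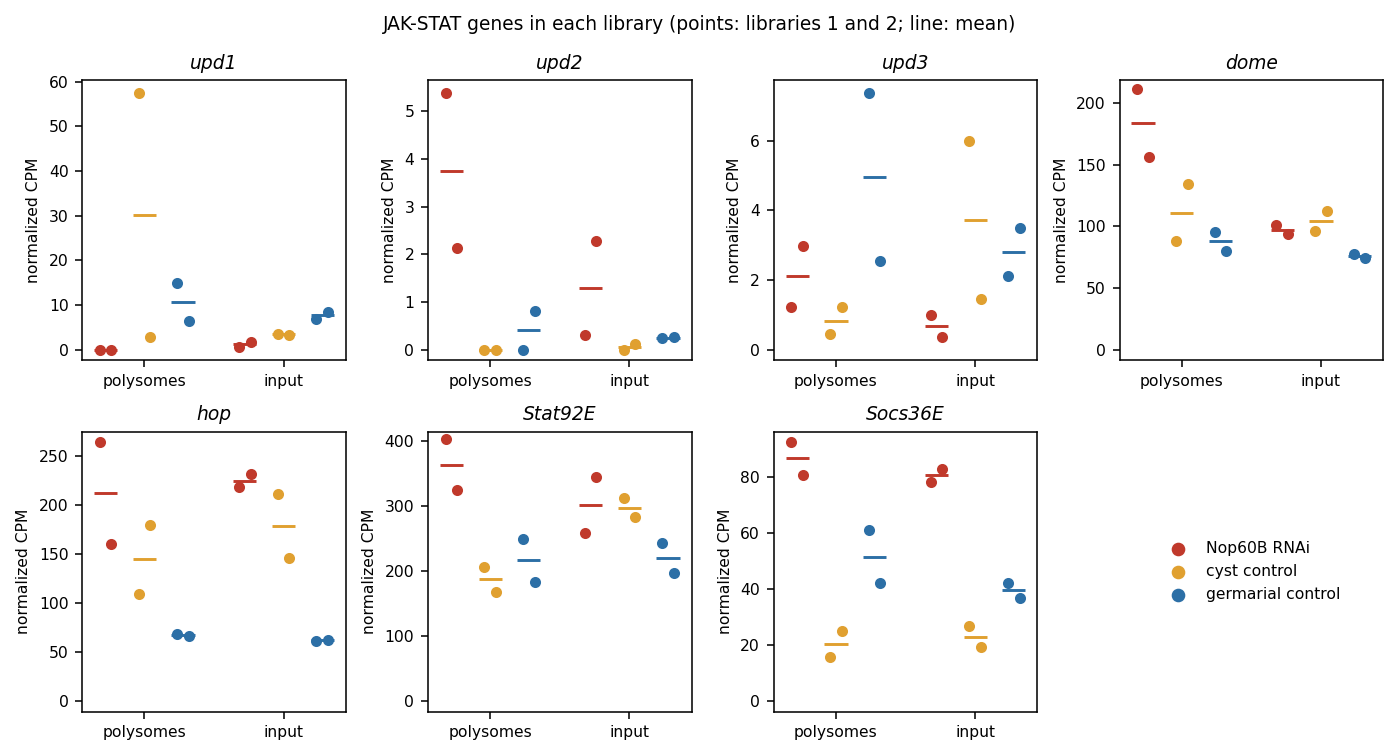
Normalized CPM (vertical axis, linear, a separate scale for each gene) of the 7 JAK-STAT genes in polysome and input libraries of Nop60B RNAi (red), the cyst control (orange) and the germarial control (blue); points are the 2 libraries and the line is their mean. upd1 sits at 0 in both Nop60B RNAi polysome libraries, and upd2, dome, hop, Stat92E and Socs36E in Nop60B RNAi sit above both germarial control libraries in each fraction.

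The receptor gene dome was highest on Nop60B RNAi polysomes. It measured 212 and 157 CPM there, against 88.2 and 134 CPM in cyst control polysomes and 95.8 and 80.0 CPM in germarial control polysomes. The knockdown libraries lay above all 4 control libraries. Set against the germarial control the log2 difference was 1.07 ± 0.33 (SE), and set against the cyst control 0.72 ± 0.32, and neither passed after adjustment (edgeR adjusted p = 0.0662 and 0.169). In input dome did not pass in any comparison, at 101 and 94.0 CPM in Nop60B RNAi, against 96.3 and 113 CPM in the cyst control and 77.4 and 74.6 CPM in the germarial control. Its polysome-to-input ratio was 2.09 and 1.67 in the 2 Nop60B RNAi lysates, against 0.916 and 1.19 in the cyst control and 1.24 and 1.07 in the germarial control, and the log2 difference between polysomes and input in Nop60B RNAi was 0.92 ± 0.32 (SE, adjusted p = 0.492). When both libraries of cyst control replicate 1 were left out, the receptor passed against the germarial control on polysomes at a log2 fold change of 1.04 (adjusted p = 0.00274). In that fit 18% of 10673 genes were higher in this comparison, against 5.38% of 10035 genes with all libraries.

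hop, the Janus kinase of the fly, rose in Nop60B RNAi against the germarial control in both fractions. Its polysome levels were 265 and 160 CPM in Nop60B RNAi, against 110 and 180 CPM in the cyst control and 68.9 and 66.2 CPM in the germarial control. Its input levels were 219 and 232 CPM in Nop60B RNAi, against 212 and 147 CPM in the cyst control and 61.8 and 62.9 CPM in the germarial control. Every germarial control library lay below every library of the other genotypes. Relative to that control hop rose by a log2 fold change of 1.66 ± 0.36 (SE) on polysomes and 1.85 ± 0.37 in input (edgeR adjusted p = 0.0229 and 0.0239). The difference from the cyst control was 0.55 ± 0.36 on polysomes, where the libraries overlapped, and 0.33 ± 0.36 in input, and neither passed (adjusted p = 0.314 and 0.648). The polysome call was lost without any 1 of 6 libraries, at a log2 fold change of 1.20 and adjusted p = 0.169 without Nop60B RNAi polysomes replicate 1, and the input call without any of the 4 input libraries compared (adjusted p from 0.130 to 0.275). The cyst control itself was higher than the germarial control in input (log2 fold change 1.52 ± 0.36, adjusted p = 0.0434), while on polysomes the value of 1.11 ± 0.36 did not pass (adjusted p = 0.101). That input call was lost without any 1 of 10 libraries, with adjusted p up to 0.444. Both input comparisons share the germarial control libraries.

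Stat92E, the transcription factor of the pathway, was the most abundant of the 7 per length, and no comparison called it. Its polysome levels were 403 and 325 CPM in Nop60B RNAi, against 207 and 168 CPM in the cyst control and 249 and 184 CPM in the germarial control. Its input levels were 258 and 345 CPM in Nop60B RNAi, against 313 and 283 CPM in the cyst control and 244 and 197 CPM in the germarial control. The knockdown polysome libraries were above all 4 control polysome libraries. The differences of 0.96 ± 0.31 (log2, SE) from the cyst control and 0.75 ± 0.31 from the germarial control did not pass after adjustment (edgeR adjusted p = 0.0774 and 0.146). In input the differences were smaller, at 0.45 ± 0.31 against the germarial control, and the knockdown overlapped the cyst control. Without both libraries of cyst control replicate 1 the polysome differences were 1.19 (cyst) and 0.72 (germarial). That fit was added after the data were seen and left 1 cyst control library in each fraction. With each library left out in turn, the differences ran from 0.82 to 1.10 (cyst) and from 0.54 to 0.98 (germarial).

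Socs36E, the feedback inhibitor and a widely used readout of pathway activity in flies, was highest in Nop60B RNAi and lowest in the cyst control. Its polysome levels were 92.2 and 80.7 CPM in Nop60B RNAi, against 15.8 and 25.0 CPM in the cyst control and 60.8 and 41.9 CPM in the germarial control. Its input levels were 78.2 and 82.7 CPM in Nop60B RNAi, against 26.7 and 19.3 CPM in the cyst control and 42.1 and 36.8 CPM in the germarial control. The 3 genotypes did not overlap in either fraction, and the share of all genes that separate this way was not computed. Against the cyst control Socs36E rose with a log2 fold change of 2.07 ± 0.46 (SE) on polysomes and 1.81 ± 0.45 in input (edgeR adjusted p = 0.0205 and 0.0485). Against the germarial control the values were 0.75 ± 0.44 and 1.03 ± 0.44, which did not pass (edgeR adjusted p = 0.282 and 0.224). Without both libraries of cyst control replicate 1 these values were 0.72 and 0.95. That fit was added after the data were seen and left 1 cyst control library in each fraction. With each library left out in turn, the values ran from 0.51 to 1.03 on polysomes and from 0.85 to 1.07 in input. Between the cyst and the germarial control the log2 fold change was -1.32 ± 0.45 on polysomes (adjusted p = 0.114). The call against the cyst control in input was lost without any 1 of 10 libraries, at log2 fold changes of 1.63 to 2.05 and adjusted p up to 0.320. On polysomes it was lost without any of the 4 Nop60B RNAi libraries (adjusted p from 0.0580 to 0.102).

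Socs36E also carries the longest CAG run of the 7 genes. Its 38 CAG codons are 5.16% of 737 codons, and one run of 7 CAG codons (codons 224 to 230) lies at chr2L:18141826-18141870 on the minus strand. Only 1.11% of coding genes have a run at least that long. It is shown in capitals with its flanking codons, for comparison with the shorter run of upd1:
Socs36E: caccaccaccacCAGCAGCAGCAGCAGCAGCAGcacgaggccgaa
dome has a run of 5 glutamine codons when CAA is counted too, of which 4 are CAG, with at most 2 CAG in a row. The lengths of these runs were not tested against the counts. hop and upd3 have no run above 2 CAG codons, and Stat92E has no 2 CAG codons in a row.

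**Figure D2:**
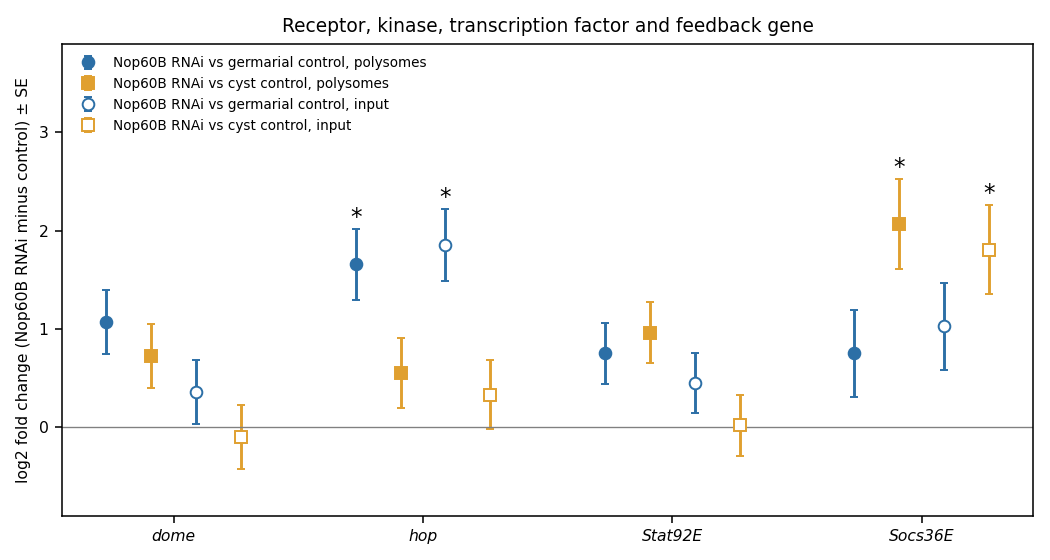
Log2 fold change (vertical axis) of the receptor, kinase, transcription factor and feedback gene in Nop60B RNAi minus the germarial control (blue circles) or the cyst control (orange squares), on polysomes (filled) and in input (open); bars are the standard error of the edgeR fit and stars mark adjusted p under 0.05. The stars stand at hop against the germarial control (1.66 and 1.85) and at Socs36E against the cyst control (2.07 and 1.81).

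Read as calls, the comparisons did not call the same members. On polysomes against the germarial control, 1 member of 7 fell (upd1) and 1 rose (hop), where 3.26% of 10035 tested genes fell and 5.38% rose. On polysomes against the cyst control, 1 fell (upd1) and 1 rose (Socs36E), against 5.52% and 3.98% of all genes. Nothing is read from a call of upd1, here or below, because upd1 passed the filter only through the control libraries. In input against the germarial control hop rose and none fell, against 2.93% and 1.23% of all genes. In input against the cyst control Socs36E rose and none fell, against 2.18% and 2.32% of all genes. Between the controls no member was called on polysomes, where 3.03% of genes were higher and 1.82% lower in the cyst control, and hop alone was higher in input, where 2.07% were higher and 1.98% lower. For the polysome comparison of the controls, 487 genes were called by edgeR, 2339 at an unadjusted p under 0.05 (2 members), and 1808 by DESeq2. A second rule, a fold change of at least 2 with an unadjusted P under 0.05, added dome on polysomes against the germarial control (14.1% of genes higher). It also added upd2 on polysomes against the cyst control (9.84% higher), from which nothing is read because upd2 passed the filter only through the knockdown libraries. In input it added Socs36E against the germarial control (11.5% higher). Between the controls on polysomes it added hop as higher (14% of genes) and Socs36E as lower (6.96%). Comparisons of Nop60B RNAi within a fraction share its libraries and are not independent of each other. The median log2 fold change of the 7 members on polysomes was 0.75 for the germarial control comparison and 0.96 for the cyst control comparison, beside -0.08 and -0.18 over all genes tested. In input that median was 0.45 and 0.02, beside 0.02 and -0.01 over all genes tested.

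Levels per length put the genes in an order. On Nop60B RNAi polysomes Stat92E averaged 69.9 ± 10.6 RPKM (CPM per kilobase of exon, SD, n = 2), hop 42.1 ± 14.7, dome 37.8 ± 7.98 and Socs36E 24.7 ± 2.31, whereas upd2 averaged 1.90 ± 1.16 and upd3 0.952 ± 0.559. hop and dome did not differ beyond their spread. On germarial control polysomes Stat92E averaged 41.6 ± 8.87 RPKM, dome 18.03 ± 2.30, Socs36E 14.7 ± 3.81 and hop 13.4 ± 0.374. Socs36E did not differ from dome or from hop beyond its spread. upd1 averaged 3.40 ± 1.92 RPKM there, upd3 2.24 ± 1.54 and upd2 0.207 ± 0.293. Among 9819 tested genes with a length, Stat92E stood at the 88th percentile on Nop60B RNAi polysomes and hop at the 80.4th, against the 79.3rd and 55.6th in the germarial control.

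Polysome-to-input ratios asked whether a gene's share on polysomes differed from its mRNA level. By edgeR no gene of 10035 passed in the ratio of any genotype, nor in the difference of the ratio between Nop60B RNAi and either control, a called share of 0% in each of these 5 comparisons. At an unadjusted p under 0.05 the ratios gave 938 genes in Nop60B RNAi, 555 in the cyst control and 152 in the germarial control, and DESeq2 called 216, 6 and 14. For the differences between genotypes the unadjusted counts were 639 for Nop60B RNAi over the cyst control and 325 for Nop60B RNAi over the germarial control, and DESeq2 called 78 and 17. Among the members, upd1 met the criteria of a fold change of at least 2 with an unadjusted P under 0.05 as lower on polysomes than in input in Nop60B RNAi (7.36% of genes lower) and in the difference to both controls (2.65% of genes lower against the germarial and 4.86% against the cyst control). Nothing is read from these, because upd1 passed the filter only through the control libraries. The upd1 ratio was 0 and 0 in Nop60B RNAi, against 15.9 and 0.875 in the cyst control and 2.13 and 0.754 in the germarial control, so the replicates of each control fell on both sides of 1. hop, Stat92E and Socs36E had ratios from 0.692 to 1.56 in Nop60B RNAi, against 0.520 to 1.29 in the cyst control and 0.933 to 1.44 in the germarial control.

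**Figure D3:**
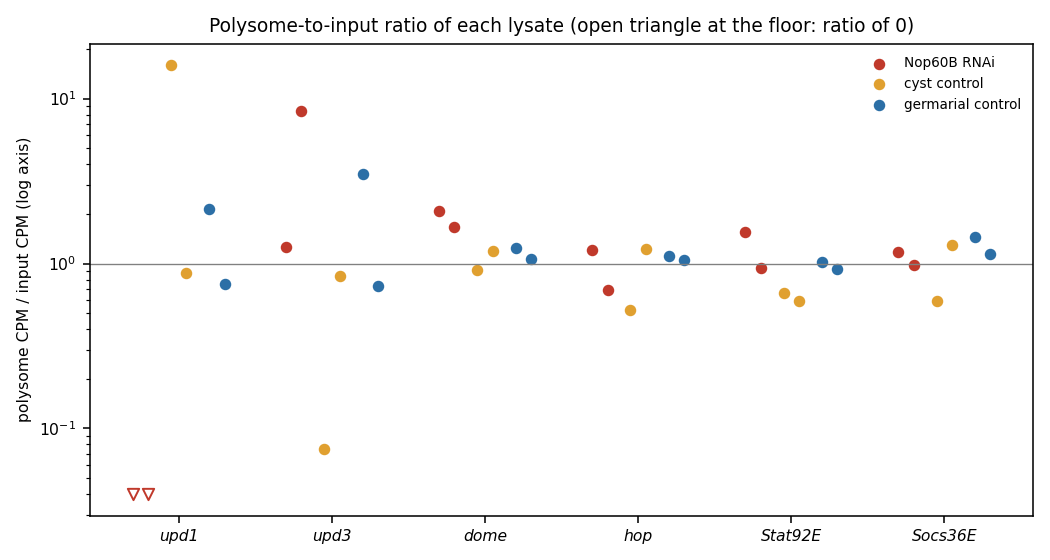
Polysome CPM divided by input CPM (vertical axis, log scale) in each lysate for 6 JAK-STAT genes in Nop60B RNAi (red), the cyst control (orange) and the germarial control (blue); open triangles at the bottom mark a ratio of 0. Both Nop60B RNAi ratios of upd1 are 0, and both of dome (2.09 and 1.67) lie above the control ratios.

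Other genes of the pathway were taken from a list of 15, all of which were tested. Against the germarial control none was called on polysomes, where 5.38% of all genes rose and 3.26% fell, and 1 fell in input, where 2.93% rose and 1.23% fell. That gene was Cdk4, a cyclin-dependent kinase that with Cyclin D is known to bind Stat92E in flies: it measured 47.1 and 42.4 CPM in Nop60B RNAi input, against 183 and 168 CPM in the germarial control, and fell by 1.97 on the log2 scale (SE 0.31, adjusted p = 0.0117, and up to 0.166 with 1 library left out). Cdk4 was also lower in cyst control input than in germarial control input, with a log2 fold change of -1.76 ± 0.31 (adjusted p = 0.0182), at 49.6 and 54.2 CPM. The second receptor gene et, known as a dampener of the pathway, was high in every knockdown library. et measured 45.5 and 32.9 CPM on Nop60B RNAi polysomes, against 0 and 2.61 CPM in the cyst control and 6.57 and 2.64 CPM in the germarial control, and was chosen for this description after its values were seen. The fitted log2 difference was 4.65 ± 1.20 (SE) against the cyst control, which passed (adjusted p = 0.0360, where 3.98% of all genes rose). With 1 library left out in turn that value ran from 3.89 to 11.99 and its adjusted p reached 0.122, and 1 of the 2 cyst control polysome libraries had no count of et. The difference was 3.09 ± 1.10 against the germarial control, which did not pass (adjusted p = 0.103). Against the cyst control Su(var)2-10, the fly PIAS protein that restrains Stat92E, and CycD fell on polysomes (5.52% of all genes fell), and Su(var)2-10 and E(bx), a subunit of the chromatin remodeler NURF, fell in input (2.32%); these 3 were likewise named after their values were seen. The median log2 fold change of the 15 genes on polysomes was 0.37 over the cyst control and 0.14 over the germarial control, beside -0.18 and -0.08 for all genes tested. In input that median had the opposite sign, at -0.21 and -0.31, beside -0.01 and 0.02 for all genes tested.

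Target genes of the pathway known from other fly tissues were taken from a list of 14, of which 9 passed the filter. Against the germarial control 2 of the 9 rose on polysomes, where 5.38% of all genes rose and 3.26% fell, and 1 rose in input, where 2.93% rose and 1.23% fell, and none of the 9 fell in either fraction. zfh1, a transcription factor known as a Stat92E target in somatic stem cells of the testis, measured 576 and 383 CPM on Nop60B RNAi polysomes, against 230 and 51.2 CPM in the cyst control and 26.5 and 29.7 CPM in the germarial control. zfh1 rose over the germarial control by 4.09 ± 0.73 (log2, SE) on polysomes and 3.04 ± 0.70 in input (edgeR adjusted p = 0.0116 and 0.0377). With 1 library left out in turn, the adjusted p for zfh1 reached 0.120 on polysomes and 0.314 in input. vir-1, a gene induced through the pathway in virus-infected flies, measured 528 and 352 CPM on Nop60B RNAi polysomes, against 853 and 76.3 CPM in the cyst control and 51.4 and 26.5 CPM in the germarial control. vir-1 rose on polysomes against the germarial control (3.50 ± 0.95, adjusted p = 0.0457), and in input the value of 3.82 ± 0.97 did not pass (adjusted p = 0.0512), and with 1 library left out the polysome value reached adjusted p = 0.268. Neither was called against the cyst control. Both genes differed between the replicates of that control: in input zfh1 was at 216 CPM in replicate 1 and 67.8 CPM in replicate 2, and vir-1 at 517 and 134 CPM. Between the same input libraries, replicate 1 and then replicate 2, the muscle markers summed to 11794 and 2800 CPM, the escort cell markers to 1917 and 652 CPM, the follicle cell markers to 1259 and 394 CPM, the hemocyte markers to 839 and 303 CPM, and the germline markers to 272 and 1460 CPM. Hemocyte, muscle, escort cell, and terminal filament and cap cell markers summed higher in Nop60B RNAi than in the germarial control, as given above. Follicle cell markers also summed higher within each fraction. The part of any of these lists in the zfh1 and vir-1 values was not tested. The median of the 9 targets was 2.26 on polysomes and 1.99 in input relative to the germarial control, beside -0.08 and 0.02 over all genes, and it was -0.08 and -0.71 against the cyst control. Of the 9, 6 had counts in both fractions of Nop60B RNAi and of the germarial control. The medians therefore include genes with no count in some group.

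**Figure D4:**
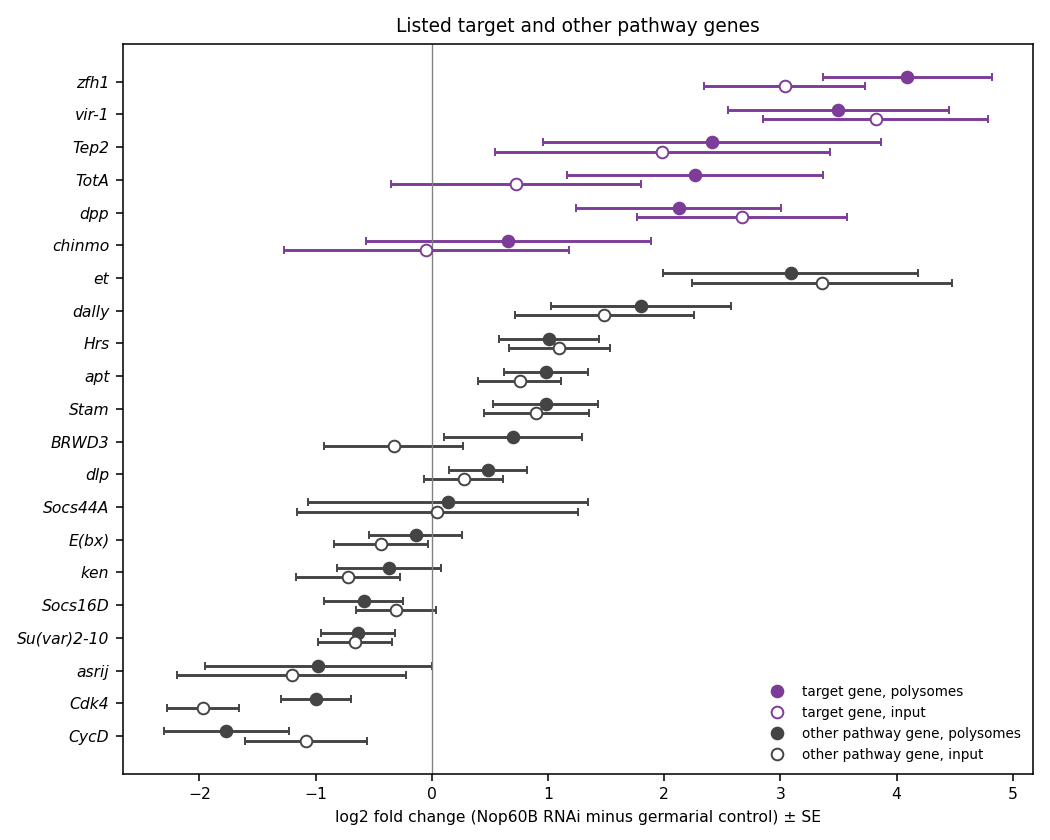
Log2 fold change in Nop60B RNAi minus the germarial control (horizontal axis) with the standard error of the edgeR fit, on polysomes (filled) and in input (open), for 6 target genes (purple) and 15 other pathway genes (dark grey) that had counts in all 4 groups. zfh1 (4.09 on polysomes) and vir-1 (3.50) lead the targets, and Cdk4 (-1.97 in input) is among the lowest.

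Letters of the Stat92E binding motif were sought in the 1000 bases before each member's annotated start. The motifs were TTCNNNGAA and TTCNNNNGAA, each read the same on both strands. Of the 7 genes, 2 had a match, 1 each to the second motif, and 47.9% of 13944 upstream windows of coding genes held either motif. The match before dome began 103 bases upstream of the start (window shown, chrX:19683602-19683631) and the match before upd2 began 439 bases upstream (window shown, chrX:18243704-18243733). They are shown on the strand of the gene, with the motif in capitals, because dome and upd2 were the members with such letters:
dome: gaattcgaatTTCGGCTGAAatgcgatgtt
upd2: tgagtaatctTTCTGGTGAAattcagccaa
A match is not a binding site, and a window without these letters says nothing of sites elsewhere.

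The genes whose level across the 12 libraries was most like each member's were named by Pearson's r of log2(CPM + 1). upd1 was closest to His2Av (r = 0.98), the histone variant H2Av, then to CG9839 and CG12010 (r = 0.97 and 0.96). Socs36E was closest to CG12896 (r = 0.99), hop to CG9864 (r = 0.97), dome to htk (r = 0.94) and Stat92E to Sap-r (r = 0.94), a gene for saposin-like lysosomal proteins. upd2 was closest to PH4alphaNE1 (r = 0.96) and upd3 to CG12104 (r = 0.91). Among the members themselves, Socs36E correlated with Stat92E at r = 0.56, with dome at r = 0.37 and with hop at r = 0.26. Nothing is read from the correlations of upd1 and upd2 given here. upd1 passed the filter on low counts only through the control libraries, and upd2 only through the Nop60B RNAi libraries. The 12 points share libraries, genotypes and depth, and no p is attached.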

How the data were processed

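Poly(A)-selected RNA of whole ovaries was sequenced from input lysate and pooled polysome fractions. Per the labels, the authors aligned reads to dm6 with HISAT2 2.1.0 and counted them per gene with featureCounts 1.4.6, and they deposited raw counts for 17023 FlyBase gene IDs per library, without normalization. The treatment of strand and of multiply aligned reads is not given in the sources used here. Current symbols came from Ensembl release 115, which held 16647 of the IDs. Of 79 listed symbols, 75 matched, and the others were not analysed here.

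The deposited counts went into edgeR 4.0.16 (R 4.3.3): filterByExpr on the 6 groups (10035 genes), TMM scaling, and a quasi-likelihood fit with one mean per group over all 12 libraries, so that the spread was shared. A gene was called at a Benjamini-Hochberg adjusted p under 0.05 over all genes. The standard error is the log2 fold change over the square root of its F statistic. The study names RIVET for its polysome analysis, which was not rerun. No pair of libraries was identical. Replicates are numbered libraries of pooled ovaries, and nothing in the sources used here says that they came from separate crosses, so p-values measure the spread between these samples. With 2 libraries a group, the smallest two-sided permutation p is 0.333. The fit was tested on simulated data.

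The members and lists were chosen with earlier results of these data known. Besides the members, genes called against the germarial control were named, at most 3 per list, fraction and direction, and the 3 genes most like each member. et, Su(var)2-10, CycD and E(bx) fall outside this rule and were named after their values were seen. Input and polysome libraries with the same number came from one lysate by the study's methods. Their deviations from the group mean correlated at r = 0.384 in the cyst control, 0.0282 in the germarial control and -0.0229 in Nop60B RNAi. Alternatives were the low-count filter, scaling, DESeq2 1.42.0, only the libraries compared, a replicate or lysate block, each library left out, and the criteria of the study's polysome analysis (fold change of at least 2 with unadjusted P under 0.05), applied here to input too. Leaving out both libraries of cyst control replicate 1 was added after the data were seen. Coding sequences and upstream windows were read from the Release 6 RefSeq genome. One sequence is not reported here.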

Additional observations from a re-analysis of the deposited data

Results flagged for a closer look

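The polysome-to-input ratio of upd3 lay above 1 in both Nop60B RNAi lysates (1.25 and 8.37) and below 1 in both cyst control lysates (0.0756 and 0.840). In the germarial control the ratios were 3.49 and 0.728, so lysates of the same genotype fell on both sides of 1. The test of the difference between Nop60B RNAi and the cyst control did not pass (edgeR quasi-likelihood test, log2 difference 3.69 ± 2.12 SE, adjusted p = 0.791). The counts behind it were 20 and 49 on polysomes and 13 and 5 in input of Nop60B RNAi, against 1 and 21 on polysomes and 58 and 24 in input of the cyst control.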

How the results depend on the processing

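Counts of JAK-STAT members called differed between alternatives, and so did the share of all genes called, which is given beside them. With DESeq2, 5 members were called on polysomes against the cyst control (23.8% of all genes, against 2 members and 9.5% by edgeR), 2 in input against the germarial control (15.5%, against 1 and 4.16%), 2 between the controls on polysomes (18%, against 0 and 4.85%), 1 on polysomes against input in Nop60B RNAi (2.15%, against 0 and 0%), and 1 in the difference of that ratio from the cyst control (0.777%, against 0 and 0%). When only the libraries compared were fitted, the counts were 0 on polysomes against the cyst control (0.388% of genes), 6 in input against the germarial control (61.3%) and 0 between the controls in input (5.33%, against 1 member and 4.06% with all libraries). By a fold change of at least 2 with an unadjusted P under 0.05, 2 were called in input against the germarial control (17.9%), 2 between the controls on polysomes (21%), 1 in the Nop60B RNAi ratio (8.06%) and 1 in its difference from the germarial (3.21%) and from the cyst control (6.28%). Without the low-count filter, 0 were called in input against the cyst control (7.05%) and 1 in the ratio difference from the cyst control (0.237%), and with library totals in place of TMM 0 were called in input against the cyst control (4.06%, against 1 member and 4.5% with TMM).

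With the replicate number as a block, Socs36E was lost in input against the cyst control and hop between the controls in input, leaving 0 members in each. In that fit 4.03% and 3.65% of all genes were called in these comparisons. The paired analysis with the lysate as a block gave 0 members in every polysome-to-input comparison, as without it, and over all genes it called 1 in Nop60B RNAi and 1 in the germarial control.

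Without both libraries of cyst control replicate 1, an alternative chosen after seeing the data, 5 members were called on polysomes against the germarial control (upd1 lower, and dome, hop, Stat92E and Socs36E higher), where 37.7% of all genes were called, against 8.64% with all libraries. In that fit 2 were called in input against the germarial control (29.4%), 2 between the controls on polysomes (18.7%) and in input (20.2%), and 2 on polysomes against input in Nop60B RNAi (4.41%). With each library left out in turn, members called ranged from 0 to 3 on polysomes against either control, from 0 to 2 in input against the germarial control, and from 0 to 1 in input against the cyst control, between the controls in each fraction, in the cyst control ratio and in the ratio difference from the cyst control.

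The sign of upd1 in the cyst control rested on 1 library. Between the controls on polysomes its log2 fold change of 1.49 became -1.83 without cyst control polysomes replicate 1 and -1.96 without both replicate 1 libraries, with 2.35 as the highest value over left-out libraries. On cyst control polysomes against input the value of 3.09 became -0.23 and -0.11, with 4.00 as the highest. None of these main values passed the test, and the cause was not tested. Over single genes, 472 of the values with 1 library or both replicate 1 libraries left out kept their sign and side of the threshold, 76 lost and 33 gained a call and 4 changed sign, and under other settings 279 kept both, 10 lost and 27 gained a call. upd2 was not fitted with a filter of a mean of 1 CPM. The ligands had at most 256 counts in any library.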
